A study of Mus musculus with 8 samples.

Results

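Among the epithelial cells of mouse colon tumour grafts, the wells ranked highest on each plate by Krt7, Ly6a, Wfdc2 and Car2 transcripts are described here. The cells had been counted by SORT-seq, in which single sorted cells fill plates of 384 wells and transcripts are counted from their 3′ end by unique molecular identifiers. A well was called epithelial when it held at least 2000 transcripts, at least 2 of Epcam and under 2 of Ptprc (the pan-immune marker CD45). Epcam, Krt8, Krt18, Krt19 and Cldn7 together also had to reach 10 transcripts per 10000. Levels of collagen and of the mature colonocyte genes Guca2a and Lypd8 had to be low. On each plate the top 1 in 3 of these wells by the summed level of the 4 genes were taken and are called high wells here. There were 89 high wells and 185 other epithelial wells, 274 in all, of 3072 wells in the series. The 4 genes chose the wells, so every difference between high and other wells is given as a description with no test.

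Cells of 1 mouse filled each of 8 plates, with 4 plates of the control genotype (FibCtrl) and 4 plates of mice with Zeb1 deleted in fibroblasts (Fib-Del). ZEB1 is a transcription factor of epithelial-mesenchymal transition, and the study asked what its loss in fibroblasts does to the tumour. Both genotypes carried floxed Zeb1 and received a tamoxifen diet. Fib-Del mice also carried an inducible Cre, which the labels give as Col1a1Cre-ERT2 and the methods of the study as a Col1a2-driven allele, and FibCtrl mice were negative for it. The tumours were grafts of clonally expanded organoids with engineered mutations, among them in Apc and Trp53, placed in the wall of the cecum; whether all mice received the same line is not given in the sources used here. The tumour cells themselves were therefore not the target of the deletion. Cells had been sorted by EPCAM, by CD45 and by a gate negative for both and for the endothelial marker CD31. Which gate filled a given well was not taken into account.

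As background, Krt7 and Krt19 are keratins of simple and ductal epithelia, and KRT7 is scarce in normal colon epithelium. Ly6a (Sca-1) is a membrane-anchored protein that marks the colon epithelium during repair after injury, where fetal-type genes return and Wnt-driven stem cell genes recede. Wfdc2 (HE4) is a secreted protein of the WAP four-disulfide core family found in ductal and airway epithelia. Car2 is a cytosolic carbonic anhydrase and Gpx2 an epithelial glutathione peroxidase. In the GENCODE M21 annotation of GRCm38, Krt7 lay on chr15:101411043-101430313, Ly6a on chr15:74994877-74998031, Wfdc2 on chr2:164562413-164568510 and Car2 on chr3:14886273-14900770.

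The windows of 250 bases before a RefSeq start of 5 genes that the results turn on are shown because these genes moved together or in opposition across the wells. Krt7 (chr15:101412153-101412402, plus strand) and Wfdc2 (chr2:164562465-164562714, plus strand) helped choose the wells. Ly6c1 (chr15:75048838-75049087, minus strand) and S100a11 (chr3:93520246-93520495, plus strand) were among the 5 genes that most closely followed the 4-gene level over wells, and Nkd1 (chr8:88527383-88527632, plus strand) ran opposite. Sequences are from RefSeq on GRCm38.p6, written 5′ to 3′ on the strand of the gene. The RefSeq start lay 1360 bases downstream of the GENCODE gene start for Krt7, 302 for Wfdc2, 6279 for Nkd1 and 8 for S100a11, so that the Krt7, Wfdc2 and Nkd1 windows lie inside the GENCODE genes. The table held 2 windows for Wfdc2 and 2 for Ly6c1, of which the first was taken. Capitals mark matches on either strand to the letters TGANTCA (AP-1), GGAATG (TEAD) or CTTTGA (TCF/LEF), none of which overlapped in these windows.
Krt7: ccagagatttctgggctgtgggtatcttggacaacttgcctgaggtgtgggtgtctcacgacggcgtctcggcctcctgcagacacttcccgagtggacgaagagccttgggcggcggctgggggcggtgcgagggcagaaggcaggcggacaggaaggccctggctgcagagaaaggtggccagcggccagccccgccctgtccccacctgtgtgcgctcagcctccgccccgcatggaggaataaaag
Wfdc2: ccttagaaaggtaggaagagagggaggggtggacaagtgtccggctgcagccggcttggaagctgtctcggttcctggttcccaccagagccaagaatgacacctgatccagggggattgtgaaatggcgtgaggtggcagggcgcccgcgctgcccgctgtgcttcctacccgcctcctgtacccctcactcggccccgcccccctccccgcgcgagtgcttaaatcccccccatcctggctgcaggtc
Ly6c1: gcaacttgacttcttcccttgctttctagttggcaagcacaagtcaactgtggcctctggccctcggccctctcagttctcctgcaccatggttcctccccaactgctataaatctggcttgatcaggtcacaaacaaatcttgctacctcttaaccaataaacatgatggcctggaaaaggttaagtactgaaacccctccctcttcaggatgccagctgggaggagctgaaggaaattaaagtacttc
S100a11: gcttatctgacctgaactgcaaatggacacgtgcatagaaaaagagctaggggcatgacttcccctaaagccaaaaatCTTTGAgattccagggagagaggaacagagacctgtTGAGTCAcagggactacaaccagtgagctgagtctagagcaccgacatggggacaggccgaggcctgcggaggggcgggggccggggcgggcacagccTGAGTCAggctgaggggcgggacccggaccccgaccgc
Nkd1: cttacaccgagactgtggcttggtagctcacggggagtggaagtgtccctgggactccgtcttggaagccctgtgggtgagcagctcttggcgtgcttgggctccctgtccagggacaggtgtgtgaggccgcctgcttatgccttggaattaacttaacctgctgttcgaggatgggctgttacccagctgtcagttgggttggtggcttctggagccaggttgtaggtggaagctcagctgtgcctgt
The window of S100a11 held 2 AP-1 words and 1 TCF/LEF word, and the other windows held none of the 3 motifs. Of all 27025 genes with such a window, 7.82% held the AP-1 letters, 14.4% the TEAD letters and 15.8% the TCF/LEF letters.

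The rule gave 3, 5, 14 and 14 high wells on FibCtrl replicates 1 to 4 and 8, 8, 21 and 16 on Fib-Del replicates 1 to 4. The 4 genes were not split by a gap on most plates. The lowest high well stood 1.03 to 1.39 times above the highest other well on 7 plates and 2.22 times above it on FibCtrl replicate 1. The cut itself fell between 19.9 and 31.7 transcripts of the 4 genes per 10000 on 6 plates. It stood at 54.8 on FibCtrl replicate 4 and 84.8 on Fib-Del replicate 2, so a well just below the cut of these plates would have been a high well on the others. At a fixed level of 24.2 per 10000, the median cut, 56.8% of epithelial wells of FibCtrl replicate 4 (95% Wilson interval 42.2 to 70.3) and 61.5% of Fib-Del replicate 2 (42.5 to 77.6) were at or above it. The other 6 plates had between 25.6% and 33.3%.

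**Figure D1:**
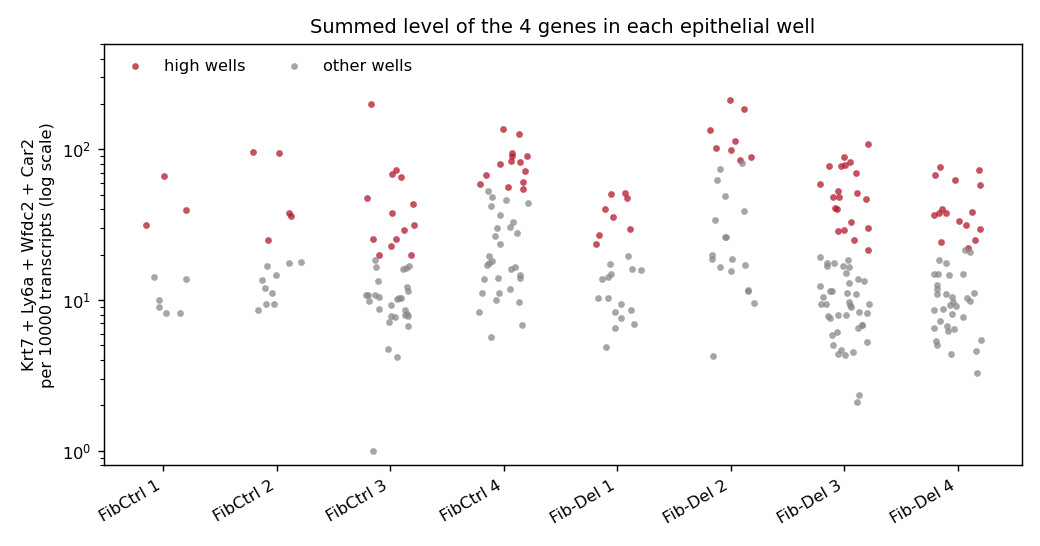
Summed level of Krt7, Ly6a, Wfdc2 and Car2 per 10000 transcripts (log scale) in each of the 274 epithelial wells, by plate, with the 89 high wells in red and the 185 other wells in grey; the 1 well at 0 is drawn at 1. The wells of each plate form a continuous range, and those of FibCtrl 4 and Fib-Del 2 lie higher than on the other plates.

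Plates differed in depth, with 981881 to 5905188 transcripts each after spike-ins and mitochondrial genes were set aside. The sums over high wells held 102378 to 538510 transcripts and those over other wells 247436 to 1262257. High wells had the lower median of transcripts per well on 6 of 8 plates, from 10385 against 25964 on Fib-Del replicate 4 to 39113 against 27097 on Fib-Del replicate 2. Their median mitochondrial share was 7.92% to 14.7%, lower than in the other wells on all plates but FibCtrl replicate 3. When each well was thinned to 2000 transcripts and the rule applied again, 84.3% of the high wells were chosen again. The file names of replicates 1 and 2 of both genotypes carried 1 code and those of replicates 3 and 4 another. This code was read as that of the flow cell, which the sample labels do not name. All plates used the same 384 well barcodes, so shared barcodes carry no information here. Host immune wells and epithelial wells differed in sex-linked transcripts on all plates but FibCtrl replicate 1. There both held Xist, at 4.34 per 10000 in immune and 2.06 in high wells, and no Y-linked transcripts, so the 2 could not be told apart. On FibCtrl replicate 3, immune wells held 3.74 Y-linked transcripts per 10000 and high wells 0.166. On FibCtrl replicate 2 and Fib-Del replicates 1 and 2, immune wells held 3.21 to 4.73 transcripts of 4 Y-linked genes per 10000, whereas the high wells held at most 0.158 and had Xist in 4 of 5, 6 of 8 and 6 of 8 wells. On FibCtrl replicate 4 and Fib-Del replicates 3 and 4, immune wells held 3.48 to 4.09 transcripts of Xist per 10000, and 0 of 14, 0 of 21 and 2 of 16 high wells held at least 2 of them. Over both genotypes, high wells held 2.06 to 5.84 transcripts of Xist per 10000 on replicates 1 and 2 and 0.0371 to 1.65 on replicates 3 and 4, so the tumour cells split in the same way as the flow cells, and the 2 cannot be told apart.

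Markers of other cell types were at low levels in the high wells, apart from fibroblast genes on FibCtrl replicate 1 and Fib-Del replicate 1. The 18 immune genes summed to 0.951 to 4.33 transcripts per 10000 in high wells and 0.656 to 5.79 in other wells, with 2 of the 18 at 0 in every high well. Fibroblast genes, which the rule capped in part, summed to 3.99 to 27.3 and 3.66 to 21.4. They were highest on FibCtrl replicate 1 (27.3 in high and 21.4 in other wells) and Fib-Del replicate 1 (17.6 and 15.9). The 8 endothelial genes reached 1.47 and 0.925, with Kdr, Plvap and Emcn at 0, and the 8 smooth muscle and pericyte genes reached 2.96 and 2.61. The immune, fibroblast and endothelial sums were each higher in high wells on 6 of 8 plates, and the smooth muscle sum on 3. Mesothelial cells, which line the abdominal cavity, also carry keratins and mesothelin. The 12 mesothelial genes summed to 0.264 to 3.71 per 10000 in high wells and 0.144 to 1.33 in other wells. The sum was higher in high wells on 7 of 8 plates, by 1.475 to 3.44 on the log2 scale. It includes Msln itself, so its rise in part restates the Msln result given below. No sum without Msln was taken, and the part of mesothelial cells in the Msln result was not tested. Of the 12 only Msln passed the filter on low counts, Upk3b was at 0 on all plates and Wt1 reached 7.32 CPM (transcripts of the gene per 1000000 cell transcripts) in high and 7.397 CPM in other wells. Genes of epithelial identity summed to 38.4 to 83.4 in high and 41.9 to 66.7 in other wells. Epcam had a mean log2 ratio of 0.12 ± 0.34 (SD, n = 7 plates). Epcam, Krt8, Krt18 and Cldn7 of that list also helped choose the epithelial wells. Zeb1 was barely seen in high wells, at 0 to 2 counts per plate. In fibroblast wells, taken as those with at least 20 collagen transcripts (Col1a1, Col1a2 and Col3a1) per 10000 and under 2 of Epcam and of Ptprc, it reached 85.4, 0, 28.3 and 76.9 CPM on FibCtrl replicates 1 to 4 and 42.9, 26.1, 44.7 and 23.7 CPM on Fib-Del replicates 1 to 4, so the genotypes overlapped. A 3′ count can come from outside the deleted part of Zeb1 and is no check of the deletion.

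To describe the high wells, counts were summed over the high and over the other wells of each plate and set against each other as a log2 ratio. Means and SDs are over 7 plates, since FibCtrl replicate 1 had only 3 high wells. Ly6a had 2438, 3516, 3156 and 4793 CPM in the high wells of FibCtrl replicates 1 to 4 and 2154, 5433, 2577 and 2468 CPM in those of Fib-Del replicates 1 to 4. In the other wells it had 522, 486, 223 and 1034 CPM, then 336, 1495, 161 and 208 CPM. The lowest high sum lay above the highest other sum, and the mean log2 ratio was 2.99 ± 0.81.

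Wfdc2 ranged from 201 to 2307 CPM in high wells with a median of 794, and from 38.5 to 685 CPM in other wells with a median of 152. It was higher on all 8 plates although the ranges overlapped, with a mean log2 ratio of 2.07 ± 0.86. Krt7 ranged from 421 to 2667 CPM (median 1195) against 194 to 954 CPM (median 443). Its mean log2 ratio of 1.38 ± 0.26 had the smallest spread of the 4 genes. Car2 ranged from 423 to 1319 CPM (median 677) against 193 to 608 CPM (median 303), a mean log2 ratio of 1.09 ± 0.47. Leaving out the high well of each plate that held most of the gene gave means of 1.73 for Wfdc2, 1.05 for Krt7 and 0.61 for Car2.

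Krt19 and Gpx2 were not part of the score, although Krt19 counted towards the choice of epithelial wells. Krt19, a keratin often paired with KRT7 in ducts, was higher on all 8 plates at 683 to 2567 against 551 to 1360 CPM, with a mean log2 ratio of 0.78 ± 0.37. Without the 1 high well of each plate that held most Krt19, the mean fell to 0.40 and the sign held on 4 of 7 plates. Gpx2 was higher on 6 of 8 plates at 103 to 1076 against 91.4 to 541 CPM, with a mean log2 ratio of 0.40 ± 0.73, and without the top well the mean was 0.005. Gpx2 therefore did not mark these wells beyond its spread between plates.

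**Figure D2:**
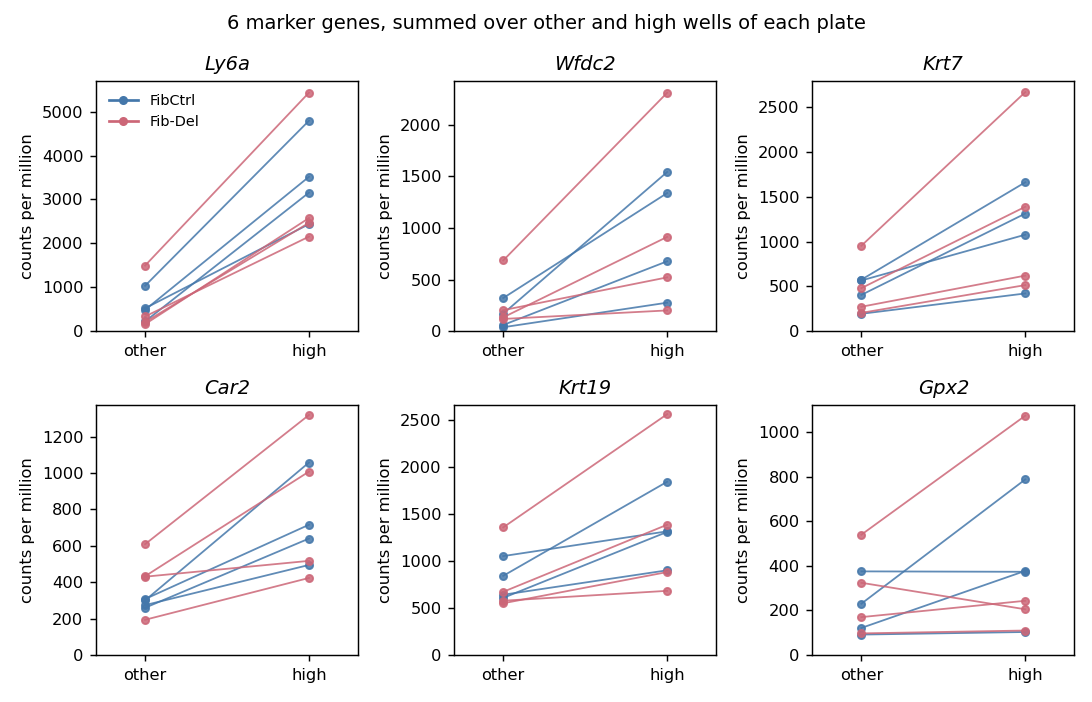
CPM of Ly6a, Wfdc2, Krt7, Car2, Krt19 and Gpx2 summed over the other and the high wells, each line 1 plate (blue FibCtrl, red Fib-Del, 8 plates). The first 4 genes chose the wells and rise on all plates; Krt19 rises by less, and Gpx2 falls on 2 plates.

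The 4 genes of the score did not vary as 1 unit. Within plates, over 265 wells of 7 plates, Ly6a and Wfdc2 had a mean Spearman correlation of 0.51 (0.36 to 0.66), Krt7 and Krt19 0.43 (0.18 to 0.60) and Car2 and Gpx2 0.38 (0.26 to 0.67). Krt7 and Car2 had a mean of -0.07 (-0.42 to 0.27). These values are across wells that share a library and differ in depth. When the wells were instead chosen by 3 of the genes, the left-out Ly6a, Wfdc2 and Krt7 were higher in the chosen wells on all 8 plates, by 0.77 to 3.54, 0.76 to 3.49 and 0.62 to 1.70 on the log2 scale. Left-out Car2 was higher on 6 plates and lower on FibCtrl replicate 3 (-0.38) and Fib-Del replicate 4 (-0.11). Krt7 and Gpx2 had a mean Spearman correlation of -0.13 (-0.31 to 0.05). Car2 had means of 0.23 with Ly6a and 0.22 with Wfdc2. On average over plates, Car2 and Gpx2 thus did not rise with Krt7 across wells.

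The genes whose level most closely followed the 4-gene score over wells, apart from the score's own genes, were Ly6c1 (mean Spearman 0.65 over 7 plates, of 6864 genes), Anxa3 (0.61), S100a11 (0.60), Tmsb10 (0.57) and S100a10 (0.53). Ly6c1 is a relative of Ly6a, Anxa3 an annexin, S100a10 and S100a11 calcium-binding S100 proteins, several of which bind annexins, and Tmsb10 an actin-sequestering thymosin. Nkd1, which encodes a feedback inhibitor of Wnt signalling and is induced by it, was at the other end (-0.53), with a negative value on each plate (-0.73 to -0.30).

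Across the 7244 genes that passed the filter, a gene was called when its ratio had the same sign on all 7 plates and a mean log2 ratio of at least 1 in size. Called higher in high wells were 66 genes (0.911%) and called lower 125 genes (1.73%), 191 in all (2.64%), with the 4 genes of the rule among those higher. By sign alone, 259 genes (3.58%) were higher and 351 (4.85%) lower on all 7 plates. The median over all genes was -0.05. Apart from the markers, the 15 highest were Ly6c1, 9030619P08Rik, Myof, Msln, Anxa8, Anxa3, Lama3, Cwh43, Wnt7b, Bmp8b, Col18a1, Ly6d, Mboat1, Antxr2 and Msn, at mean log2 ratios from 3.57 to 1.90. They include the secreted ligands Wnt7b (2.08 ± 0.39) and Bmp8b (2.08 ± 0.996), the membrane repair protein myoferlin (Myof, 2.97 ± 1.70) and moesin (Msn, 1.90 ± 0.82), which ties actin to the membrane.

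Ly6c1 had 254, 541, 280 and 624 CPM in high wells of FibCtrl replicates 1 to 4 and 259, 594, 152 and 154 CPM in those of Fib-Del replicates 1 to 4. In other wells it had 22.3, 32.4, 5.76 and 91.1 CPM, then 16.3, 122, 15.1 and 4.50 CPM. The ranges did not overlap, and the mean log2 ratio was 3.57 ± 0.94. Ly6c1 has a close copy in Ly6c2, which did not pass the filter, and the counting of the authors could have split reads between them.

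Msln, which encodes the surface protein mesothelin, had 78.2, 220, 39.9 and 257 CPM in high wells of the FibCtrl plates against 0, 20.2, 3.84 and 29.7 CPM in other wells. On the Fib-Del plates it had 10.6, 345, 244 and 84.2 CPM against 0, 100, 22.99 and 3.60 CPM. It was higher on every plate (mean log2 ratio 2.77 ± 0.69), although the ranges overlapped. Without the high well of each plate that held most Msln, the mean was 1.90 and the sign held on 6 of 7 plates.

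The 4 genes called higher among Ly6d, Ly6a, Ly6c1 and 9030619P08Rik also shared a place in the genome. They lay between 74762056 and 75431829 on chromosome 15, an interval set by the outer genes after their values were seen. Of the 5 genes there that passed the filter these 4 were called, and the fifth, Ly6e, had a mean log2 ratio of 0.32 ± 0.25. Ly6d, a marker of squamous and lymphoid cells, owed much to single wells. Its ratio was 2.00 ± 1.47, and 0.45 without the top well of each plate.

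At the other end, the 10 lowest genes were Slc30a2, Hdc, Pcgf1, Dact1, Jakmip3, T, Pla2g2a, Gstm7, Rdh9 and Hpgds, at mean log2 ratios from -3.16 to -2.09. Slc30a2, a zinc exporter, ranged from 0 to 58.6 CPM in high wells (median 4.50) and from 14.8 to 123 CPM in other wells (median 85.4), and was lower on all 8 plates. The mesodermal transcription factor brachyury (T), a known Wnt target, ranged from 5.70 to 169 CPM (median 51.6) against 88.9 to 480 CPM (median 254). Pcgf1, a polycomb subunit, ranged from 3.59 to 120 CPM against 120 to 302 CPM, so that the 2 ranges met at their ends, and was lower on all 8 plates.

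Pla2g2a, a secreted phospholipase A2, ranged from 810 to 7766 CPM (median 3105) in high wells and from 1264 to 23205 CPM (median 11033) in other wells. It was lower on 7 of 8 plates, and FibCtrl replicate 1 went the other way at 7766 against 1264 CPM. The mean log2 ratio over the other 7 plates was -2.15 ± 0.63. Hpgds, a prostaglandin D synthase, had a mean of -2.09 ± 0.85 that shrank to -0.89 without the top other well of each plate.

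**Figure D3:**
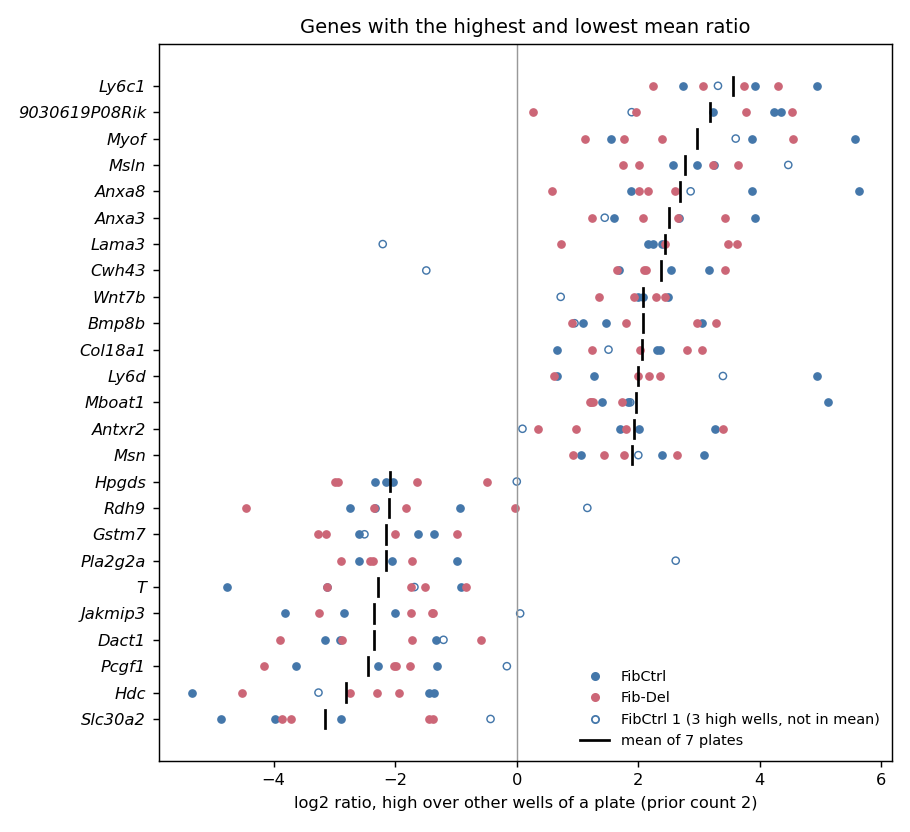
Log2 ratio of high over other wells on each plate for the 15 genes with the highest and the 10 with the lowest mean among called genes (filled points, 7 plates; open points, FibCtrl 1, which is not in the mean; bars, mean). Means run from 3.57 for Ly6c1 to -3.16 for Slc30a2, and the genotypes intermingle.

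Single wells carried a part of these ratios, since the median share of a gene's high-well counts in its top well reached 60.9% for Anxa8. Of the 25 genes just named, 13 kept their sign on 7 plates and 11 on 6 plates when the top well on the richer side of each plate was left out, which by itself pulls ratios towards 0. The mean stayed at 1 or more in size for 23 of them.

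Genes of the regenerative and fetal-type epithelium formed a list of 30, of which 23 passed the filter. Of these, 7 were called higher (among them Ly6a, Msln, Anxa3, Clu, S100a11 and Krt7), none lower and 16 neither, with a median log2 ratio of 0.84. The list holds 2 genes of the rule, so neither its count nor its sum is independent of it. Its summed level was 122 to 300 per 10000 transcripts in high wells against 67.2 to 147. Without Ly6a and Krt7 the sum was 91.3 to 219 against 62.4 to 123, higher on 8 of 8 plates by 0.16 to 1.10 on the log2 scale. Clusterin (Clu), a chaperone that marks revival stem cells of the injured gut, ranged from 9.77 to 1568 CPM (median 288) against 2.23 to 627 CPM (median 46.5), with a mean log2 ratio of 1.70 ± 0.90. That ratio was 0.57 without the top well of each plate. S100a11 ranged from 981 to 2976 CPM against 403 to 1040 CPM (1.58 ± 0.62). Anxa1, a known marker of such epithelium, had a ratio of 0.41 ± 0.34 and was not called, and neither was the EGF-type ligand Areg (0.85 ± 2.20).

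Wnt target and stem cell genes ran the other way. Of 24 genes 19 passed the filter, none was called higher, and Nkd1, Lef1, Notum and Znrf3 were called lower, with a median of -0.75 over the list. Each is induced by Wnt signalling; Nkd1, Notum and Znrf3 are feedback inhibitors and Lef1 is a transcription factor of the pathway. Nkd1 had 343, 150, 804 and 103 CPM in high wells of FibCtrl replicates 1 to 4 and 376, 194, 573 and 469 CPM in those of Fib-Del replicates 1 to 4. In other wells it had 944, 1393, 1506 and 934 CPM, then 966, 890, 1633 and 1180 CPM. No high sum reached the lowest other sum, and the mean log2 ratio was -1.94 ± 0.92.

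Axin2, a further feedback gene, ranged from 82.6 to 413 CPM against 194 to 545 CPM. It was lower on all 8 plates at -0.75 ± 0.43, short of the size limit. Lgr5, the stem cell receptor, ranged from 5.28 to 170 CPM against 37.2 to 321 CPM and was lower on 6 of 8 plates (-1.43 ± 1.19). Wif1, a secreted Wnt antagonist, was lower on 7 of 8 plates at -2.54 ± 2.27. Not all members went down, as Cd44 had a ratio of 0.94 ± 0.45 with a positive sign on 7 of 7 plates. The summed level of the list was lower in high wells on 8 of 8 plates, at 31.96 to 46.05 per 10000 against 45.7 to 65.6.

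Laminin, integrin and protease genes of invasion were a list of 21, with 11 past the filter and 4 called higher, none lower and 7 neither, at a median of 0.82. Among the called genes were the laminin chain Lama3 (2.43 ± 0.96), the matrix protein fibronectin (Fn1, 1.18 ± 0.82) and the laminin receptor subunit Itga3 (1.002 ± 0.73). Lamb3, also a laminin chain, had 0.50 ± 0.38 and was not called. Without the top well of each plate the ratio was 0.21 for Fn1 and 0.52 for Itga3, whose sign held on 5 of 7 plates. That of Lama3 was 1.499. On FibCtrl replicate 1, which is not in the means, Lama3 had 0 CPM in high and 13.4 CPM in other wells. The summed level was higher on 8 of 8 plates, at 17.2 to 56.1 against 10.7 to 32.6 per 10000.

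Cell cycle genes all passed the filter, 24 of 24, and 2 were called higher, the replication helicase subunits Mcm5 (1.480 ± 1.197) and Mcm6 (1.32 ± 0.71), with none lower. The median was 0.59, but both called genes rested on single wells, with ratios of 0.07 and 0.10 without the top well of each plate. The summed level was higher on 7 of 8 plates, most on FibCtrl replicate 2 at 102 against 20.5 per 10000, where 5 high wells were summed.

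In the Ly6 family 5 of 15 genes passed and 3 were called higher. The sum of keratin and junction genes without Krt7 was higher on 8 of 8 plates, by 0.05 to 0.59 on the log2 scale. The median of their ratios was 0.17 over 19 genes, with Krt7 called higher and Krt23 called lower (-1.05 ± 0.55). Of 20 gastric and duct-type genes only 4 passed. Wfdc2 and Krt7 were the 2 called higher, while the transcription factor Sox2 had -0.58 ± 0.44. Of the gastric mucins, Muc5ac had 1 count and Muc6 had 0 in all high wells. Only 4 of 20 absorptive genes and 2 of 18 goblet and secretory genes passed, none of them called; the villus protein Vil1 nonetheless ranged from 84.6 to 143 CPM in high wells and 174 to 328 CPM in other wells without overlap (-0.93 ± 0.41). None was called among interferon genes (5 tested, median -0.39), antigen presentation genes (9, -0.06), hypoxia and glycolysis genes (21, 0.05), antioxidant genes with Gpx2 (18, 0.12), immediate-early AP-1 genes (19, -0.27), epithelial identity genes (11, 0.17), fibroblast genes (6, 0.09) or ribosomal protein genes (12, -0.01). Among 25 epithelial cytokine and acute phase genes 8 passed. The chemokine Cxcl16 (1.484 ± 0.82) was called higher and Tgfb2 (-1.43 ± 0.86) lower. Among mesenchymal genes, Vim had -1.33 ± 1.04 and Twist1 -0.69 ± 1.17, with neither called. The other lists held few genes past the filter. Car9, the only other carbonic anhydrase that passed besides Car2, had 0.06 ± 1.19, and Wfdc2 was the only gene of its family that passed. Of the genes engineered in the organoids, Trp53 and Apc had -0.08 ± 0.37 and -0.52 ± 0.56, and Lypd8, which the rule capped, had -0.60 ± 0.78.

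**Figure D4:**
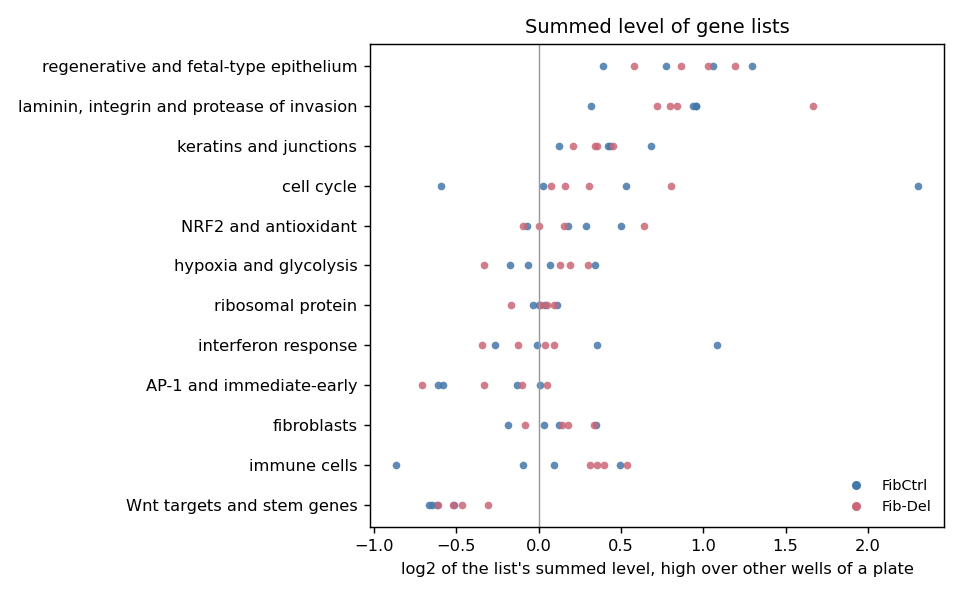
Log2 ratio of the summed level of 12 gene lists, high over other wells, each point 1 of 8 plates (blue FibCtrl, red Fib-Del). All plates lie above 0 for the regenerative, laminin and integrin, and keratin lists and below 0 for the Wnt list, while the remaining lists lie on both sides; the regenerative list holds Ly6a and Krt7 and the keratin list Krt7, which chose the wells.

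The genotype of the host fibroblasts did not enter the rule, so it could be tested. To ask whether the high wells differed between genotypes, their sums were compared over 3 FibCtrl and 4 Fib-Del plates with edgeR's quasi-likelihood test, leaving out FibCtrl replicate 1 with its 3 high wells. None of 5777 genes passed a Benjamini-Hochberg adjusted p of 0.05, and 127 (2.2%) had an unadjusted p below 0.05. DESeq2 also called 0, with 100 below 0.05 unadjusted. In the other wells, over all 8 plates, edgeR called 0 of 8826 genes, with 175 (1.98%) below 0.05 unadjusted. DESeq2, added after the data were seen, called 0 there, with 136 below 0.05 unadjusted.

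The 6 markers did not separate the genotypes. Their log2 changes in high wells, Fib-Del minus FibCtrl, were -0.30 ± 0.33 (SE) for Ly6a, -0.15 ± 0.70 for Wfdc2, -0.09 ± 0.48 for Krt7, 0.15 ± 0.42 for Car2, -0.14 ± 0.39 for Krt19 and 0.47 ± 0.70 for Gpx2, each with an edgeR adjusted p of 0.999. Apart from that of Ly6a, these changed sign with the plates or wells used.

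The lowest p-values in high wells are given as values. On the lower side in Fib-Del were Tacc2 (-1.66 ± 0.41 SE), Ube2c (-3.43 ± 0.91), Kpna2 (-2.46 ± 0.66), Arl6ip1 (-1.65 ± 0.49) and Tns4 (-1.04 ± 0.31), all with an edgeR adjusted p of 0.999. Tacc2, a centrosome-associated protein, had 77.1, 60.7 and 68.6 normalised CPM on FibCtrl replicates 2 to 4 and 12.01, 22.8, 17.6 and 32.7 on the Fib-Del plates, without overlap. Ube2c, a ubiquitin-conjugating enzyme of mitosis, had 1589 normalised CPM on FibCtrl replicate 2, 85.7 and 169 on FibCtrl replicates 3 and 4 and 15.2 to 102 on the Fib-Del plates. FibCtrl replicate 2 thus set most of the Ube2c difference. The same plate stood highest for Kpna2, at 840 against 121 and 200 normalised CPM on FibCtrl replicates 3 and 4. For Arl6ip1 it had 1114 against 204 and 325. FibCtrl replicate 2 had 5 high wells, and 1 of them held 121871 of their 273983 transcripts. How these genes were spread over its wells was not tested.

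On the higher side were Smarcb1 (1.14 ± 0.35), Trf (3.12 ± 0.97), Skil (0.91 ± 0.28), Fryl (1.22 ± 0.39) and E030002O03Rik, again with an edgeR adjusted p of 0.999. Skil, a repressor of TGF-beta signalling, had 77.1, 92.9 and 62.5 normalised CPM on FibCtrl replicates 2 to 4 and 132, 148, 149 and 147 on Fib-Del replicates 1 to 4. E030002O03Rik was at 0 on all 3 FibCtrl plates and on Fib-Del replicate 4, and at 72.1, 103 and 2889 on Fib-Del replicates 1 to 3, so no fold change is given. Genotypes did not overlap for 220 of 5777 genes in high wells (3.81%), over 3 against 4 plates. In other wells they did not overlap for 143 of 8826 genes (1.62%), over 4 against 4 plates, so these shares are not comparable.

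**Figure D5:**
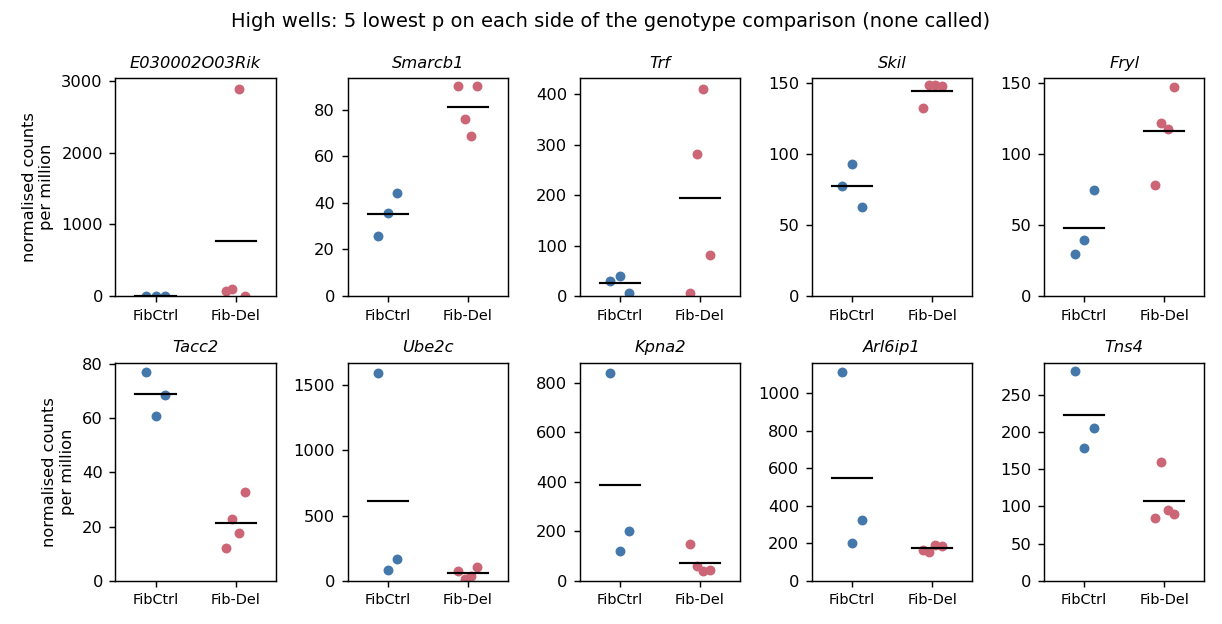
Normalised CPM in the high wells of each plate for the 5 genes with the lowest p on either side of the genotype comparison (3 FibCtrl plates in blue, 4 Fib-Del plates in red; bars, means). None passed the adjusted threshold. Tacc2, Smarcb1, Skil, Fryl, Arl6ip1 and Tns4 do not overlap. FibCtrl replicate 2 stands far above the other plates for Ube2c, Kpna2 and Arl6ip1, and Fib-Del replicate 3 for E030002O03Rik.

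Whether the difference between high and other wells depended on genotype was tested as an interaction over 16 sums of 8 plates with plate as a block. None of 8111 genes passed, and 224 (2.76%) had an unadjusted p below 0.05 with edgeR, while DESeq2 called 1, Muc13. The lowest p-values again are values with no verdict, each with an edgeR adjusted p of 0.999 or more. Among them were Muc13 (-4.93 ± 0.98 SE), 2610528A11Rik (-2.92 ± 0.65), Ckmt1 (-2.44 ± 0.60), Lgals4 (-1.80 ± 0.47) and Car1 (-5.13 ± 1.41) on the lower side, and Fryl (1.57 ± 0.40), Cd40 (1.98 ± 0.54), Sept10 (2.95 ± 0.85) and Mmp7 (2.06 ± 0.60) on the higher side.

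Muc13, a transmembrane mucin of colon epithelium, had 88.01, 36.5, 3.32 and 194 CPM in high wells of FibCtrl replicates 1 to 4 against 0, 8.08, 0.96 and 20.4 CPM in other wells. On Fib-Del replicates 1 to 4 it had 0, 57.5, 1.86 and 14.6 CPM against 2.32, 38.9, 45.4 and 80.4 CPM. High wells held more on each FibCtrl plate and on 1 Fib-Del plate. Lgals4, a galectin of intestinal epithelium, had 588, 589, 0 and 587 CPM in high wells of the FibCtrl plates against 262, 76.8, 6.72 and 141 CPM, and 52.8, 299, 91.2 and 154 CPM against 60.5, 289, 71.6 and 183 CPM on the Fib-Del plates. FibCtrl replicate 3 went against the other FibCtrl plates for Lgals4.

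Finally, 16 single values per plate were compared between genotypes by an exact permutation test, two-sided, over 70 arrangements of 8 plates, in which the smallest possible p is 0.0286. They covered the summed level of the 4 genes, the cut, the ratio of each of the 6 markers, depth, mitochondrial share and the markers of other cell types. None had an adjusted p below 1.0. The smallest raw p was that of the Wfdc2 ratio between high and other wells, which averaged 2.83 ± 0.60 (SD, n = 4) on FibCtrl plates and 1.64 ± 0.84 on Fib-Del plates (difference -1.19, exact permutation p = 0.0857, adjusted p = 1.0). That difference was -2.04 within the first flow cell and -0.35 within the second. Wfdc2, like Krt7, Ly6a and Car2, helped choose the wells. The ratios of these genes depend in part on that choice on each plate, so no conclusion is drawn from this p.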

How the data were processed

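The counts were deposited by the authors as estimated counts per gene and well: unique molecular identifiers corrected for collisions, of which 86.5% are whole numbers, with no further normalization. The methods of the study name bwa and a GRCm38 transcriptome, and the submitters' processing notes name BWA, GRCm38 and Cell Ranger 2.1.1. Whether the counting used strand is not given in the sources used here. Members, gene lists and tests were chosen with earlier results of these data known. Wells were chosen by the rule given with the results, 1 plate per mouse was the replicate, and counts were summed over high and over other wells of each plate and rounded for the count tests. No doublet caller was run, since 1 cell was sorted per well.

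High wells were described by log2 ratios of CPM with a prior count of 2, over plates with at least 5 high wells. Genotype was tested with edgeR 4.0.16 (filterByExpr, TMM, quasi-likelihood test, Benjamini-Hochberg threshold 0.05) in R 4.3.3, with DESeq2 1.42.0 as an alternative, and single values by exact permutation tests in Python 3.11.15 with scipy 1.17.1. The scripts were tested on simulated data. CPM are per 1000000 cell transcripts, without 89 spike-in and 37 mitochondrial rows. Normalised CPM are scaled by TMM. Intervals cover counting error only. The counts come from 3′ tags, so levels of different genes were not compared. Named were the 6 markers, the 15 highest and 10 lowest called genes by mean ratio, the 5 genes most like the score, the 5 lowest p on each side where under 5 genes were called, and up to 4 members of each list; other genes were chosen after their values were seen. Alternatives are listed with the closing observations. Positions are from GENCODE M21 on GRCm38. Promoter windows came from a RefSeq table, in which Ly6a, Car2 and Krt19 have no entry. Some genes that these rules name are not reported here.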

Additional observations from a re-analysis of the deposited data

Results flagged for a closer look

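Of 40 groups of 4 plates, 9 held a plate that stood apart from the other 3. The limit used would mark about 1 in 20 groups of independent, normally distributed values. These values share plates and include low sums, so that rate does not apply to them. In the FibCtrl high wells, immune genes summed to 3.18 per 10000 transcripts on replicate 2 against 0.977 to 1.16 on the others, and smooth muscle genes to 2.44 on replicate 1 against 0.0365 to 0.209. In the Fib-Del high wells, replicate 1 stood apart for immune genes (4.33 against 0.951 to 1.29), fibroblast genes (17.6 against 4.49 to 6.51) and smooth muscle genes (2.96 against 0.0928 to 0.467). Their part in the genotype comparison was not tested.

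The log2 ratio of the laminin and integrin list between high and other wells was 0.32 on FibCtrl replicate 1 against 0.94 to 0.96 on the other FibCtrl plates, and 1.67 on Fib-Del replicate 3 against 0.72 to 0.84. The Car2 ratio was 0.26 on Fib-Del replicate 4 against 1.11 to 1.21 on the other Fib-Del plates. The cut of Fib-Del replicate 2 stood at 6.41 on the log2 scale of transcripts per 10000 against 4.42 to 4.56.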

How the results depend on the processing

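The 31 named genes of the comparison of high with other wells gave 577 comparisons with other settings, and 8 values moved by more than 1 SD. A reversal was counted only for called genes, and none was found. Leaving out plates could not reverse them, since they were called for the same sign on all 7 plates. Krt19 and Gpx2 were not called and were outside that count. On the second flow cell, Gpx2 had log2 ratios of 0.17 and -0.0072 on FibCtrl replicates 3 and 4. On Fib-Del replicates 3 and 4 it had 0.17 and -0.65. The count of 191 called genes was 327 with no filter, 463 on plates of the first flow cell only, 304 on those of the second, and 21 (of 442 genes) after thinning wells to 2000 transcripts. Leaving out 1 plate gave 196 to 249, and the remaining settings 172 to 255. With the mean over wells in place of sums 175 genes were called, which held 59.7% of the 191, and without the 2 plates of highest cut 245, which held 86.4% of them.

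The genotype comparison in high wells called 25 genes with no filter (12 higher, 13 lower) and 2 with the replicate block (E030002O03Rik and Trf), against 0 otherwise. Leaving out 1 plate gave 0. The interaction called 15 genes with no filter, 1 with DESeq2 (Muc13) and 0 to 1 without 1 plate (Muc13 without Fib-Del replicate 2). The cause was not tested. The replicate numbers did not pair the plates: same-numbered plates had correlations of 0.127, 0.166 and -0.048 over 3514 genes.

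Genotype changes of the markers reversed in 26 of 107 comparisons, and none was called in any. Krt7 was 0.31 after thinning and 0.16 over all 8 plates, and -0.70 to 0.15 without 1 plate. Wfdc2 was 0.28 with the replicate block, 0.37 with the top 1 in 4 wells, 0.34 at 5000 transcripts per well, 0.42 with the mitochondrial filter, 0.41 after thinning, and -0.98 to 0.29 without 1 plate. Car2 was -0.24 with the replicate block, -0.15 with flow cell as a covariate, -0.10 after thinning, and -0.21 to 0.50 without 1 plate. Krt19 was 0.0018 over all 8 plates and -0.60 to 0.0748 without 1 plate. Gpx2 was -0.10 with flow cell as a covariate, -0.0254 over all 8 plates, and -0.65 to 0.80 without 1 plate. Alternatives over all 8 plates, single flow cells, without the 2 highest plates without top wells and without the genes of the rule in list sums were chosen after seeing the data. Depth limits the low genes: the smallest high sum held 102378 transcripts.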

Other observations

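Further genes were lower in the high wells, chosen after their values were seen. Etv5, an ETS factor induced by receptor tyrosine kinase signalling, ranged from 9.77 to 154 CPM in high wells (median 74.1) and from 91.5 to 395 CPM in other wells (median 242). It was lower on all 8 plates, with a mean log2 ratio of -1.47 ± 0.91 (SD, n = 7). Glul, the glutamine synthetase gene and a Wnt target in liver, had medians of 325 and 952 CPM and was lower on 7 of 8 plates (-1.59 ± 0.94). Notch1, a receptor of cell fate choice, had medians of 19.4 and 36.6 CPM and was lower on all 8 plates (-1.20 ± 0.73). Igf1, a growth factor better known from stromal cells, had medians of 83.1 and 216 CPM and was lower on all 8 plates (-1.98 ± 1.89).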
